A study of Mus musculus with 17 samples.

Results

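Cells make cholesterol from acetyl units by a chain of enzymes whose genes are known to be switched on together when membrane sterol runs low. The 8 genes described here are Hmgcs1, Idi1, Fdps, Fdft1, Sqle, Cyp51, Sc5d and Insig1. They were taken as the probe sets whose symbol in the platform annotation is 1 of these names, which gave 12 of the 12488 probe sets on the array, and 8 of the 8252 genes it names singly. The first 7 genes encode enzymes of sterol synthesis and Insig1 encodes a brake on it. None of the 8 encodes an uptake receptor, so they are called sterol synthesis genes here, and uptake genes are described only as a list of their own.

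RNA came from mouse brain, from grey and white matter of the region that the middle cerebral artery supplies. The 5 single brains each came from a mouse given ischemia, reperfusion and AEOL 10150, a catalytic antioxidant, and each was put on its own array. Treated ischemic pools were given the same, ischemic pools were given ischemia and reperfusion, drug control pools were given AEOL 10150 without ischemia, and control pools were given saline. Each of these 4 groups had 3 arrays, and each array carried RNA pooled from 6 brains. Ischemia lasted 1 h and reperfusion 6 h, and control tissue was taken 6 h after the injection. Strain, age, sex and dose are not stated in the labels, nor is it said whether untreated ischemic mice received saline. The labels do not say that the pools of a group came from separate experiments, so p values measure only the spread between these arrays.

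Synthesis starts with the mevalonate arm, in which Hmgcs1 joins acetyl units, Idi1 isomerises the isoprenoid building block and Fdps joins these blocks into farnesyl diphosphate. Fdft1, squalene synthase, then commits the product to sterols. Sqle, a rate-limiting oxygenase, Cyp51, which removes a methyl group from lanosterol, and Sc5d, a late desaturase, carry it towards cholesterol. When membrane sterol falls, the transcription factor SREBP2 is released from the endoplasmic reticulum and activates most of these genes, whereas Insig1 holds SREBP back. In the adult brain nearly all cholesterol is made locally, since lipoproteins do not cross the blood-brain barrier, and much of it goes into myelin.

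The intensities are relative, so levels are given on the log2 scale after all 17 arrays were brought to 1 trimmed mean. Dimmer values than an intensity of 109.5, the floor, were raised to it, which is 6.77 on the log2 scale. Fdps had 4 probe sets and Sc5d 2. The brightest was used for each gene, which was 94325_at for Hmgcs1, 96269_at for Idi1, 99098_at for Fdps, 97518_at for Fdft1, 94322_at for Sqle, 94916_at for Cyp51, 102769_f_at for Sc5d and 92396_at for Insig1. The name of the Sc5d probe set ends in _f, which on this kind of array marks probes that can match related sequences. Levels of different probe sets are not compared with each other.

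Promoters are shown because the 8 genes are known as targets of 1 regulatory system, and the question put to the arrays was whether they move together. RefSeq (GRCm38.p6) promoter sequences of 5 of the 8 genes were in the table used here, namely Hmgcs1, Idi1, Cyp51, Sc5d and Insig1. The 250 bases before the annotated start are printed 5′ to 3′ for the 4 of them that were above the floor on all 17 arrays. Capitals mark matches, on either strand, to the sterol regulatory element TCACNCCAC, its relaxed form TCACNNCA, the CCAAT box CCAAT, the GC box GGGCGG and the E-box CACGTG.
Hmgcs1, chr13:119690101-119690350, plus strand: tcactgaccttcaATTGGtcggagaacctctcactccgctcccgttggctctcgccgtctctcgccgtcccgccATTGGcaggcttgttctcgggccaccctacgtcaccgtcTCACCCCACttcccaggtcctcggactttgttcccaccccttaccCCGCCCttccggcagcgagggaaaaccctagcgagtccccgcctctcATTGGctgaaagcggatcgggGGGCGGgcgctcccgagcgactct
Idi1, chr13:8885356-8885605, plus strand: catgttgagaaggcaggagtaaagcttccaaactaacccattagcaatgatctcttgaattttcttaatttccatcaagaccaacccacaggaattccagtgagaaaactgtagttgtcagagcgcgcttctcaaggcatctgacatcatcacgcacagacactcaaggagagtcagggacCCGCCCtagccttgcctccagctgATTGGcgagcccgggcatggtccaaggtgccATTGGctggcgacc
Cyp51, chr5:4104698-4104947, minus strand: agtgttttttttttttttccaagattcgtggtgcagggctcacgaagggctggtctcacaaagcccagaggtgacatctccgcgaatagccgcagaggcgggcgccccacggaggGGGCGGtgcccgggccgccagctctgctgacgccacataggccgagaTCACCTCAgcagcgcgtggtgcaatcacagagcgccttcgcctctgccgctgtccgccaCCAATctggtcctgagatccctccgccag
Sc5d, chr9:42264301-42264550, minus strand: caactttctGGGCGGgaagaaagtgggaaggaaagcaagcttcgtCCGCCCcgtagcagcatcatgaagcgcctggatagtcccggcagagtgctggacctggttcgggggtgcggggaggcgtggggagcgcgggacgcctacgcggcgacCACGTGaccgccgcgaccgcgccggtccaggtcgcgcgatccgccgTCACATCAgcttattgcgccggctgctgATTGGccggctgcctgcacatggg

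The element TCACNCCAC was found in 1 of the 5 promoters, that of Hmgcs1, from 137 to 129 bases before the start. It was present in 1.05% of 32851 RefSeq promoter windows of the same length. The relaxed form, chosen after the sequences had been seen, was found in Hmgcs1, Cyp51 and Sc5d and in 11.4% of all windows. In Hmgcs1 it overlaps the full element. The CCAAT box and the GC box were found in all 5 promoters, against 33.8% and 32.7% of all windows. The E-box CACGTG was found in Sc5d and Insig1, against 6.02% of all windows. These are matches of letters, and binding was not measured.

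Idi1 had the largest share of its variation between treatment groups among the 8 genes. It was highest in the single brains, at 12.25, 12.53, 12.21, 12.18 and 11.96 in the brains numbered 11, 12, 13, 14 and 16. In the pools with numbers 1, 2 and 3 it stood at 11.49, 11.68 and 12.15 in treated ischemic pools, against 11.12, 11.23 and 11.19 in drug control pools. Its levels were 12.19, 11.88 and 11.84 in ischemic pools, against 11.43, 11.76 and 11.02 in control pools. All 3 ischemic pools thus lay above all 3 control pools, and all 3 treated ischemic pools above all 3 drug control pools. In whole tissue, fewer cells of a type and less RNA per cell cannot be told apart. In order of the group means, single brains (12.23 ± 0.21, SD, n = 5) were followed by ischemic pools (11.97 ± 0.19), treated ischemic pools (11.77 ± 0.34), control pools (11.40 ± 0.37) and drug control pools (11.18 ± 0.06, n = 3 each). Values overlapped between every 2 neighbours in this order.

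The log2 difference of Idi1 was 0.59 (SE 0.24) between treated ischemic and drug control pools and 0.57 (SE 0.24) between ischemic and control pools. Averaged over both pairs it was 0.58 (SE 0.17, 95% confidence interval 0.20 to 0.96), which is 1.5-fold. In limma the unadjusted p of the average was 0.00627 and the adjusted p over all 10259 probe sets was 0.426, so Idi1 did not pass. With the scale of the deposited values as a block, the difference between treated ischemic and drug control pools was 0.31 and the average was 0.44.

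In the single brains Idi1 was 2.07-fold higher than in drug control pools (log2 difference 1.05, SE 0.15, limma adjusted p = 0.010). All 5 brains lay above all 3 drug control pools. Its adjusted p ran from 0.00368 to 0.0359 over 17 alternative settings. All single brains were deposited on another scale than the drug control pools, and their RNA was not pooled, and these cannot be told apart from the treatment. Against the ischemic pools, Idi1 differed by 0.26 in the single brains (SE 0.17, limma adjusted p = 0.378).

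**Figure D1:**
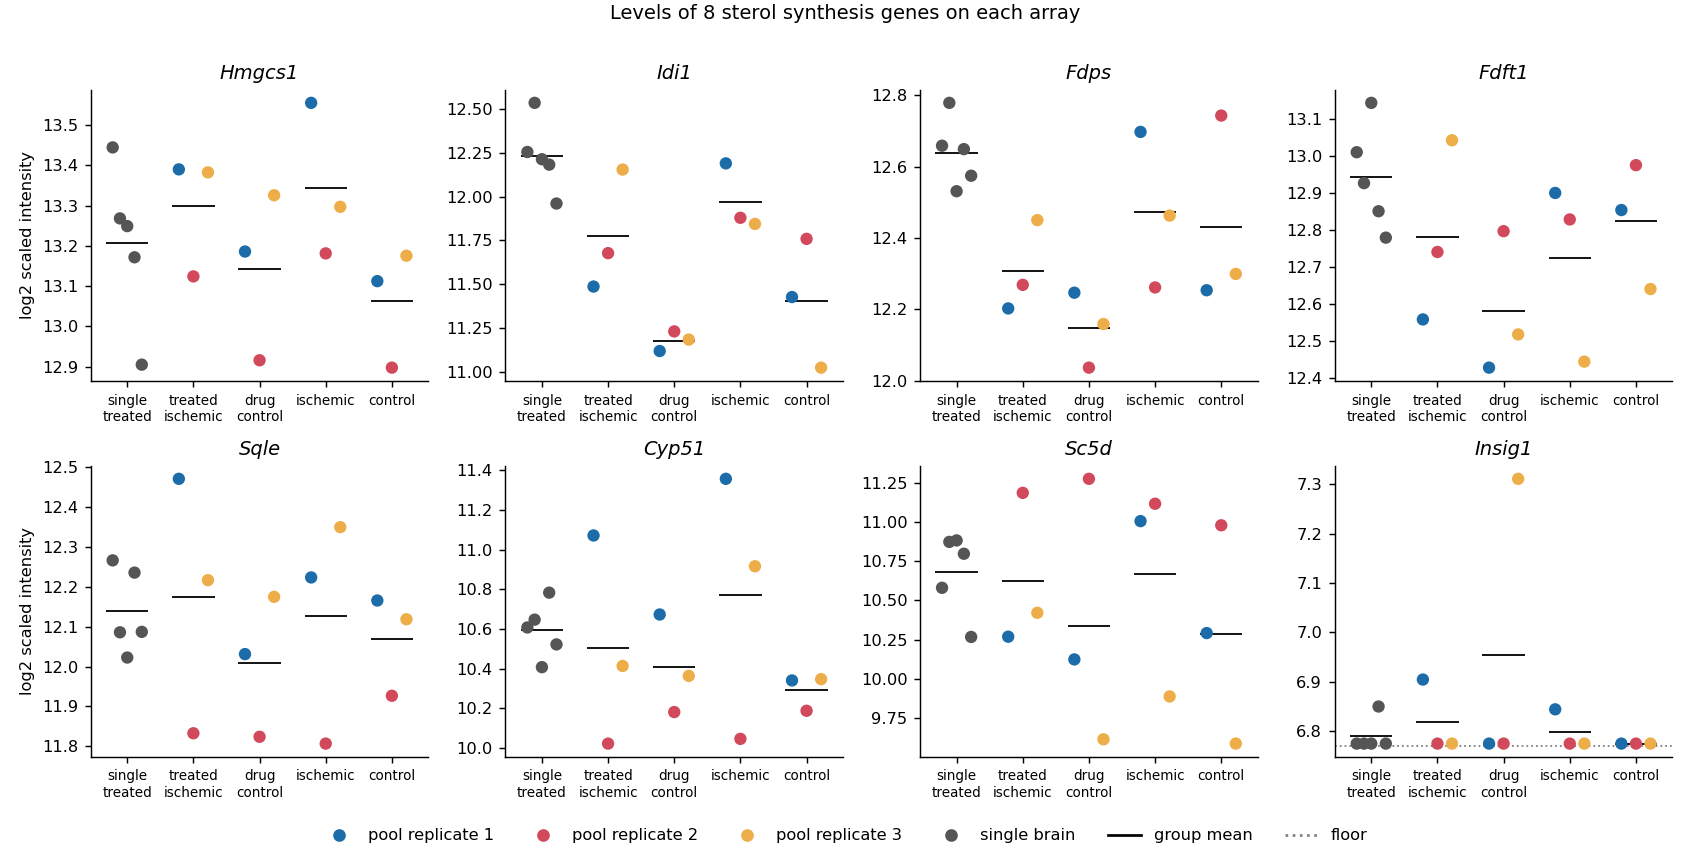
Level of each of the 8 genes (log2 scaled intensity, vertical axis, a different range in each panel) in single treated ischemic brains, treated ischemic pools, drug control pools, ischemic pools and control pools. Points are arrays, coloured by the pools' replicate number, and bars are group means. Idi1 has all ischemic arrays above its drug control pools, Sqle has replicate 2 lowest in every group, and Insig1 lies on the floor on most arrays.

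Hmgcs1, an early enzyme of the mevalonate arm, differed less between groups. It stood at 13.44, 13.27, 13.25, 13.17 and 12.90 in the single brains. In treated ischemic pools 1, 2 and 3 it stood at 13.39, 13.12 and 13.38, against 13.19, 12.92 and 13.33 in drug control pools. Its levels were 13.56, 13.18 and 13.30 in ischemic pools, against 13.11, 12.90 and 13.18 in control pools. The ischemic pools lay above the control pools without overlap, by a log2 difference of 0.28 (SE 0.19, limma adjusted p = 1), while treated ischemic and drug control pools overlapped. Replicate 2 was the lowest array of each of the 4 pooled groups.

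Fdps makes farnesyl diphosphate, the branch point to sterols, dolichol and prenylated proteins. It stood at 12.66, 12.78, 12.53, 12.65 and 12.57 in the single brains. Its levels were 12.20, 12.27 and 12.45 in treated ischemic pools, against 12.25, 12.04 and 12.16 in drug control pools. They were 12.70, 12.26 and 12.46 in ischemic pools, against 12.25, 12.74 and 12.30 in control pools. The single brains lay above all drug control pools and the pooled groups overlapped in both ischemia comparisons.

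Fdps was 1.41-fold higher in the single brains than in drug control pools (log2 difference 0.49, SE 0.12, limma adjusted p = 0.0496), just inside the threshold. Leaving out drug control pool 2 or 3 or any 1 of the 5 single brains gave an adjusted p of 0.0652 to 0.108, and leaving out drug control pool 1 gave 0.0488. The second Fdps probe set above the floor, 160424_f_at, did not separate the groups. It averaged 12.29 ± 0.14 in single brains and 12.09 ± 0.33 in drug control pools (SD, n = 5 and 3), and the groups overlapped. The mean of both probe sets differed by 0.35 (limma adjusted p = 0.122). The other 2 Fdps probe sets were at the floor on all 17 arrays.

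Fdft1 stood at 13.01, 12.93, 13.14, 12.85 and 12.78 in the single brains. Its levels were 12.56, 12.74 and 13.04 in treated ischemic pools, against 12.43, 12.80 and 12.52 in drug control pools. They were 12.90, 12.83 and 12.44 in ischemic pools, against 12.85, 12.98 and 12.64 in control pools. Among the 7 genes above the floor on all arrays, Fdft1 alone had a lower mean in ischemic than in control pools (log2 difference -0.10, SE 0.21), and the groups overlapped in all these comparisons. In the single brains it differed from drug control pools by 0.36 (SE 0.14, limma adjusted p = 0.149).

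Sqle stood at 12.27, 12.09, 12.02, 12.24 and 12.09 in the single brains. Its levels were 12.47, 11.83 and 12.22 in treated ischemic pools, against 12.03, 11.82 and 12.17 in drug control pools. They were 12.22, 11.81 and 12.35 in ischemic pools, against 12.17, 11.93 and 12.12 in control pools. Replicate 2 was again the lowest array of each pooled group, and the groups overlapped in all these comparisons. The differences were 0.16 (SE 0.22) with the drug and 0.06 (SE 0.22) without it.

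Cyp51 stood at 10.61, 10.65, 10.41, 10.78 and 10.52 in the single brains. Its levels were 11.07, 10.02 and 10.41 in treated ischemic pools, against 10.67, 10.18 and 10.36 in drug control pools. They were 11.36, 10.05 and 10.92 in ischemic pools, against 10.34, 10.19 and 10.35 in control pools. Ischemic pools 1 and 3 were above every control pool and ischemic pool 2 was below them all, so the difference of 0.48 had an SE of 0.35. The SD was 0.67 in ischemic pools and 0.53 in treated ischemic pools, against 0.25 in drug control and 0.09 in control pools.

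Sc5d stood at 10.58, 10.87, 10.88, 10.80 and 10.27 in the single brains. Its levels were 10.27, 11.19 and 10.42 in treated ischemic pools, against 10.12, 11.28 and 9.61 in drug control pools. They were 11.01, 11.12 and 9.89 in ischemic pools, against 10.29, 10.98 and 9.59 in control pools. Here replicate 2 was the highest array of each pooled group, the reverse of Sqle. Its differences of 0.29 with the drug and 0.38 without it had an SE of 0.52 each. Its other probe set, 102768_i_at, averaged 9.31 ± 0.35 in single brains and 9.70 ± 0.35 in drug control pools (SD, n = 5 and 3), opposite in direction to the brighter one.

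Insig1 was above the floor on 3 of 12 pooled arrays and 1 of 5 single brains. The level was 6.85 in single brain 14, 6.90 in treated ischemic pool 1, 7.31 in drug control pool 3 and 6.84 in ischemic pool 1. With all other arrays at the floor, no fold is given for it. It passed the filter on low values with the fewest arrays allowed, and it was not tested in the single brains.

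Across the ischemia comparisons of pools, 0 of the 8 genes passed an adjusted p of 0.05. Of all probe sets, 0.0877% passed between treated ischemic and drug control pools, 0.214% between ischemic and control pools and 0.448% in the average of both. At an unadjusted p under 0.05 in limma, 1 of the 8 genes, Idi1, was higher in each of these comparisons. The share of all probe sets higher at that level was 2.07% with the drug, 2.9% without it and 3.21% in the average. Without overlap between the arrays, Idi1 was higher with the drug and Hmgcs1 and Idi1 were higher without it, against 3.75% and 4.07% of all probe sets.

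The differences of most of the genes were above 0. Insig1 is left out of these counts, since the sign of its difference comes from the floor. With the drug 7 of 7 were above 0, against 46.4% of all probe sets. Without it 6 of 7 were, against 54.3%, and in the average 7 of 7 were, against 52.5%. The median difference of the 7 genes was 0.16 with the drug, against -0.02 over all probe sets, and 0.28 without it, against 0.03. With Insig1 among them the medians were 0.16 and 0.17, and these rest on single arrays: without drug control pool 2 the first was 0.0873, and without control pool 3 the second was 0.0575. These are counts over genes that share arrays, and most single differences were within their standard errors.

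**Figure D2:**
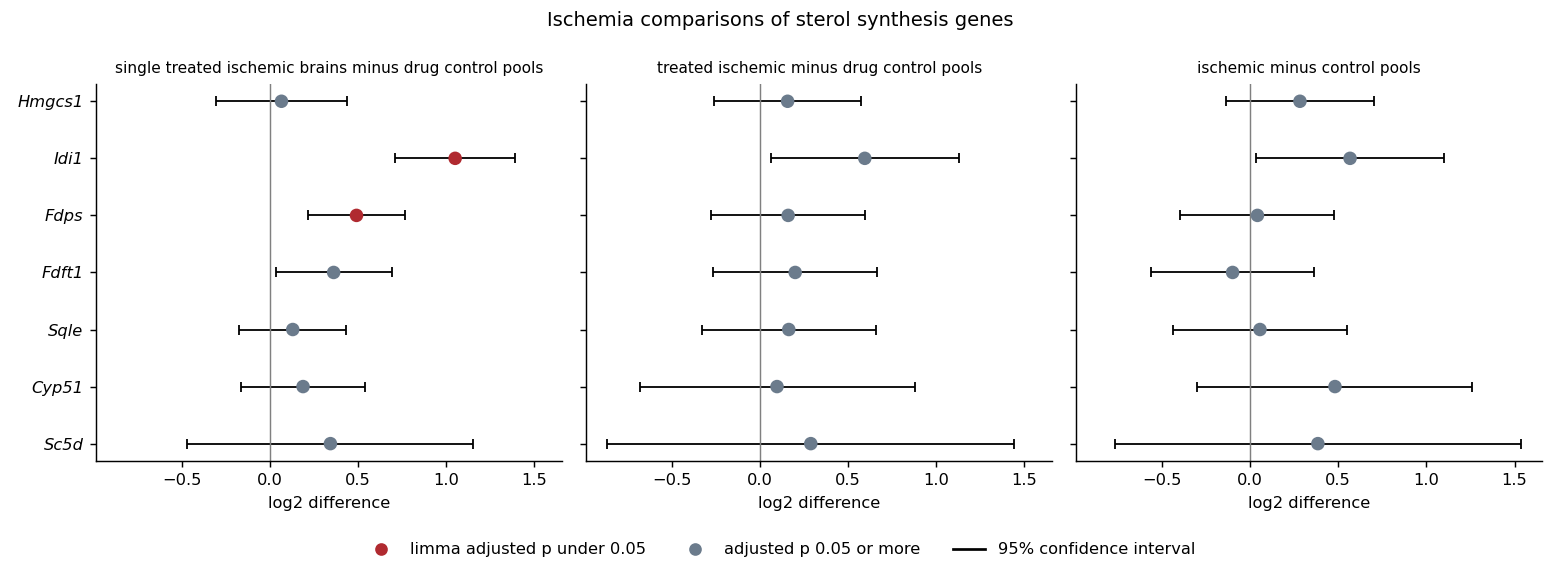
Log2 difference (horizontal axis) of the 7 genes above the floor on all arrays, for single treated ischemic brains minus drug control pools, treated ischemic minus drug control pools, and ischemic minus control pools. Points are limma estimates with 95% confidence intervals, and red points have an adjusted p under 0.05 over all probe sets tested. Only Idi1 and Fdps are red, and only in the single brains.

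In the single brains against drug control pools, 2 of the 7 genes tested passed an adjusted p of 0.05 and both were higher, as were 2.91% of all 9907 probe sets. At an unadjusted p under 0.05, 3 of 7 were higher (Idi1, Fdps and Fdft1), against 11.8%. Idi1 and Fdps lay above the drug control pools without overlap, as did 8.9% of all probe sets. All 7 differences were above 0, against 45.6% of all, with a median of 0.34 against -0.05. This median is the Sc5d difference on 102769_f_at, while 102768_i_at gave -0.39. With the mean of a gene's probe sets Sc5d was -0.0235 and the median 0.19. Against the ischemic pools, 0 of 7 passed, where 1.84% of all probe sets did, and the median difference was 0.01. There 102768_i_at was lower without overlap (log2 difference -0.87, SE 0.26, limma adjusted p = 0.108), as were 9.8% of all probe sets. Both comparisons use the same 5 brains, and the difference between them was not tested.

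The comparisons of the drug gave no call among the 8 genes. Between treated ischemic and ischemic pools 0 of 8 passed, against 0.00975% of all probe sets, and Idi1 differed by -0.20 (SE 0.24). Between drug control and control pools 0 of 8 passed, also against 0.00975%, and the median difference of the 7 genes above the floor was -0.0603 with values of -0.28 to 0.11. Fdps alone separated these groups, lying lower in all 3 drug control pools than in all 3 control pools (log2 difference -0.28, SE 0.20), as did 1.92% of all probe sets. The highest drug control and the lowest control pool both stood at 12.25. On the other Fdps probe set above the floor, 160424_f_at, these groups overlapped (log2 difference -0.22, SE 0.23). The test of whether the ischemia difference changed with the drug called 0 of 8 genes and 0% of all probe sets, with 0.03 (SE 0.34) for Idi1. At an unadjusted p under 0.05, 0 of the 8 genes passed in any of these comparisons. Over all probe sets, 0.692% were higher and 0.78% lower at that level in treated ischemic than in ischemic pools. The shares were 1.72% and 0.858% for drug control against control pools, and 0.614% and 1.46% for the test of the change.

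Replicate number, whose meaning the labels do not give, held more of the variation than treatment in Hmgcs1, Sqle, Cyp51 and Sc5d. It accounted for 76.8% of the sum of squares in Sc5d, 72.5% in Sqle, 57.3% in Cyp51 and 49.2% in Hmgcs1 over the 12 pools. Treatment group accounted for 8.28%, 8.87%, 19.3% and 38.8% in the same genes. Idi1 and Fdps were the opposite, with 66.2% and 39.5% for group and 1.06% and 0.22% for replicate number. Second probe sets differed from these shares. For Fdps, 160424_f_at had 28.1% for group and 34.7% for replicate number. For Sc5d, 102768_i_at had 32.2% for group and 30.2% for replicate number. Over all tested probe sets the medians were 18.8% for group and 31.6% for replicate number. The 3′ to 5′ ratio of the actin probe sets, a measure of RNA integrity, was 1.155 to 1.194 in replicate 3 of the drug control, ischemic and control pools, and 1.33 to 2.14 in replicates 1 and 2 of these groups. Treated ischemic pools did not follow this order, with 1.68, 1.29 and 1.34 in replicates 1, 2 and 3. The same ratio for Gapdh ordered the pools otherwise, with replicate 2 highest in each group, at 1.16 to 1.555. Pools numbered 1 lay between 0.903 and 1.06 and pools numbered 3 between 1.04 and 1.19. The actin ratio was 1.38 to 1.60 in single brains, against 1.155 to 2.14 in drug control pools. The part of RNA integrity in the levels of these genes was not tested.

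**Figure D3:**
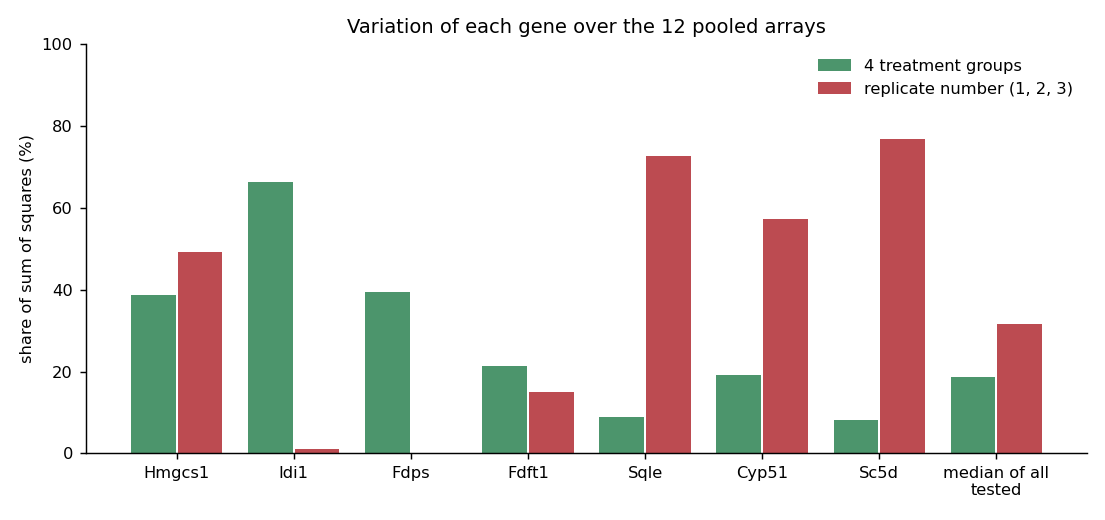
Share of the sum of squares over the 12 pooled arrays (vertical axis, %) that lies between the 4 treatment groups (green) and between the 3 replicate numbers (red), for each of the 7 genes above the floor on all arrays and for the median of all tested probe sets. Sqle and Sc5d reach 72.5% and 76.8% for replicate number, and Idi1 reaches 66.2% for group.

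The pools were then used to ask whether the genes move together. Insig1 was left out, which leaves 7 genes and 21 pairs over 12 pools. Of the 21 Pearson correlations 15 were positive, with a median r of 0.26, and all pairs of tested probe sets had a median r of 0.0074 with 50.7% positive. The strongest was between Sqle and Cyp51, with r = 0.78 and Spearman's rho = 0.88 (permutation p = 0.00292 and 4e-04, adjusted over 21 pairs 0.0543 and 0.0084). Hmgcs1 and Cyp51 had r = 0.74 and rho = 0.80 (permutation p = 0.00517 and 0.00264, adjusted 0.0543 and 0.0277). Hmgcs1 and Sqle had r = 0.71 and rho = 0.75 (permutation p = 0.0104 and 0.00699, adjusted 0.0725 and 0.0489). These r values were 0.68, 0.60 and 0.76 when 2 pools were left out of each pair. The pools left out were those farthest from the median of 1 gene, Sqle in the first pair and Hmgcs1 in the others. Extreme levels of the other gene could remain. The permutations treat the 12 pools as exchangeable, although pools of 1 replicate number resemble each other and that number held much of the variation in these 3 genes. After the mean of each replicate number was removed, r was 0.59 for Sqle with Cyp51, 0.57 for Hmgcs1 with Cyp51 and 0.30 for Hmgcs1 with Sqle. With group means removed as well, r was 0.66, 0.0864 and -0.17.

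The pairs among Idi1, Fdps, Fdft1 and Sc5d were all positive. The r was 0.68 for Idi1 with Fdps (rho 0.62, permutation p = 0.0153 and 0.0371, adjusted 0.0802 and 0.184) and 0.58 for Idi1 with Fdft1 (rho 0.60, permutation p = 0.0499 and 0.0438, adjusted 0.15 and 0.184). Sqle and Sc5d were opposed, with r = -0.63 and rho = -0.55 (permutation p = 0.0302 and 0.0708, adjusted 0.125 and 0.212). Over the 10 arrays deposited on 1 scale the median r was 0.35, and over the 7 others it was 0.39. The pairs share arrays and are not independent. Pairs with Sc5d and Fdps rest on 1 probe set of each gene, 102769_f_at and 99098_at, and their other probe sets were not used.

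After the mean of each replicate number was removed, 20 of the 21 pairs were positive, with a median r of 0.47, while all pairs of probe sets had a median of 0.0049 with 50.5% positive. The pairs with Sc5d moved up, to 0.14 in place of -0.63 for Sqle, 0.61 in place of -0.33 for Hmgcs1 and 0.80 in place of 0.47 for Idi1, while the 3 pairs among Hmgcs1, Sqle and Cyp51 moved down, as given above. The 1 pair below 0 was Fdft1 with Cyp51, at -0.07. With group means removed as well, 16 of 21 pairs were positive with a median of 0.25. All pairs of probe sets then had a median of 0.0056 with 50.4% positive. With only group means removed, 12 of 21 (57.1%) were positive with a median of 0.14, against 50.6% and 0.0084 for all pairs. These values are descriptions, and the removal of replicate number means was chosen after seeing the data. The means were taken over all 4 groups, although treated ischemic pools did not follow the numbers as the others did. Their deviations from group means correlated at -0.34 to 0.40 with pools of the same number, against 0.33 to 0.57 among the other groups.

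**Figure D4:**
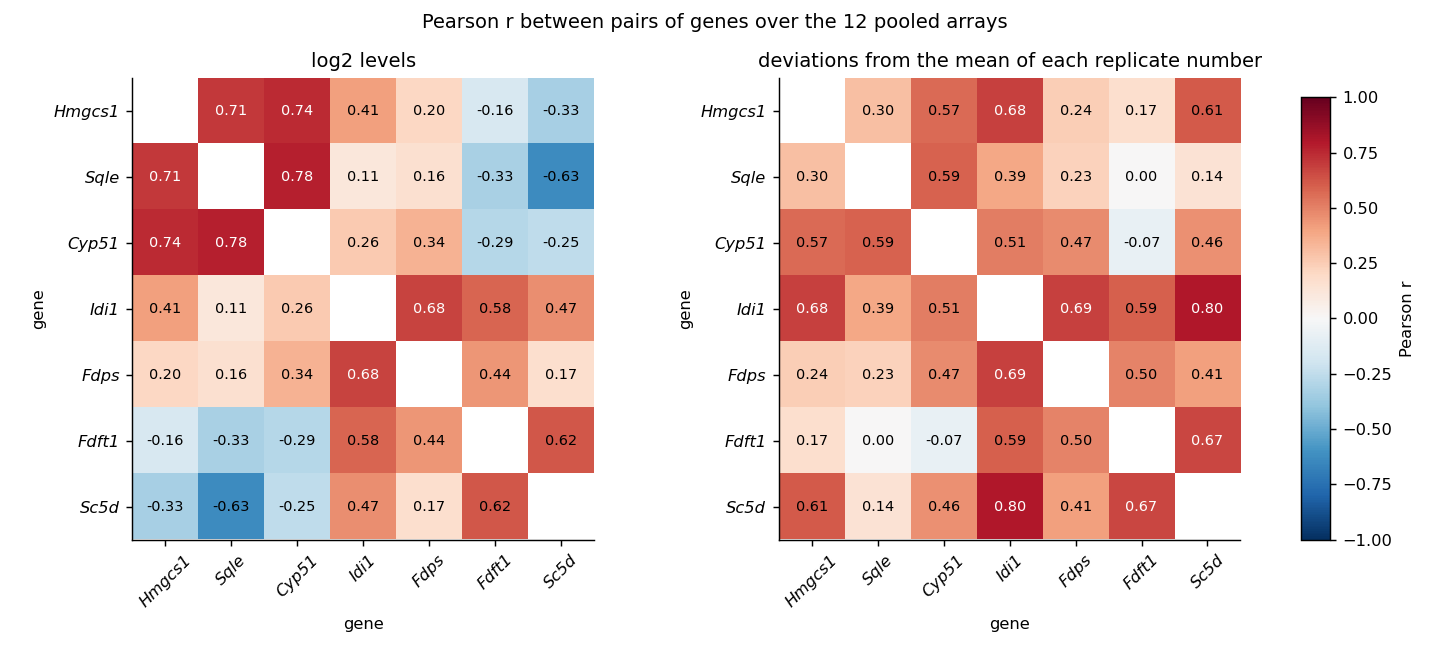
Pearson r between each pair of the 7 genes over the 12 pooled arrays (both axes are genes, and colour and printed value give r). The left panel uses log2 levels and the right panel the deviations from the mean of each replicate number. On the left Hmgcs1, Sqle and Cyp51 are negatively correlated with Sc5d, and on the right 20 of 21 pairs are positive.

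By array, ischemic pool 1 and single brain 11 had all 7 genes above their mean over the pools. The single brains had 7, 6, 5, 6 and 4 genes above it, although only 44.4% to 46.8% of all probe sets were above theirs on these arrays. The count was 3, 3 and 5 in treated ischemic pools, against 1, 2 and 2 in drug control pools. Of all probe sets, 52.5%, 51.8% and 47.8% were above their mean there, against 49.9%, 52.3% and 54.6%. The count of genes was 7, 3 and 5 in ischemic pools, against 2, 4 and 1 in control pools. The shares of all probe sets were 49.4%, 50.5% and 54%, against 45.2%, 41.7% and 54.7%. Ischemic pool 2 thus had fewer of the 7 genes above their mean than control pool 2. Hmgcs1, Sqle and Cyp51 were below their means in both.

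Genes whose levels over the 12 pools were most like the mean of the 7 standardised levels were Ccn2 (r = 0.86), Wls (0.84), Serpinh1 (0.83), Ndufc1 (0.83), Plekho1 (0.82), Elob (0.82), Tnxb (0.81), Mog (0.81), Lsr (0.81) and Trib3 (0.80), among 7272 genes. Ccn2 encodes a secreted matrix-associated growth factor modulator, Serpinh1 a collagen chaperone and Mog a myelin protein. Among the sterol and fatty acid genes listed for this work, the nearest were Msmo1, at rank 66 (r = 0.70), and the fatty acid elongase Elovl6, at rank 120 (r = 0.65). The 36 listed genes had a median r of 0.19, and 11 of them were negative. Among these were the pathway enzymes Lss (-0.37, rank 6387), Tm7sf2 (-0.27) and Dhcr7 (-0.17), and the receptor Lrp1 was the lowest (-0.51, rank 6970).

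Other genes of the pathway were followed in lists, which also hold those of the 8 genes that belong there. In the average of both ischemia comparisons, 52.5% of all probe sets were above 0, with a median of 0.0143. In the mevalonate arm, all 6 genes tested had a difference above 0 in the average of both ischemia comparisons, with a median of 0.27 and 0 calls. The 3 of them outside the 8 genes were Mvd, Mvk and Ggps1, with a median of 0.31. Mvd, the decarboxylase just before Idi1, differed by 1.16 (SE 0.44, limma adjusted p = 0.816), an estimate that rests partly on drug control pool 3, which was at the floor. Mvd stood at 10.46, 10.36 and 10.31 in treated ischemic pools, against 8.82, 10.04 and 6.77 in drug control pools. It stood at 9.69, 10.07 and 10.30 in ischemic pools, against 9.33, 9.77 and 9.50 in control pools. Mvk, mevalonate kinase, differed by 0.31 (SE 0.23).

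From squalene to cholesterol, 9 of 11 genes tested were above 0 with a median of 0.11 and 0 calls. Msmo1, the methyl sterol oxidase that acts after Cyp51, was the nearest to the threshold. It stood at 11.45, 12.21 and 12.25 in treated ischemic pools, against 11.12, 11.63 and 11.24 in drug control pools. It stood at 12.52, 12.29 and 11.79 in ischemic pools, against 11.49, 11.79 and 11.38 in control pools. All 3 ischemic pools were above all 3 control pools, and treated ischemic pool 1 lay among the drug control pools. The average difference was 0.65 (SE 0.20, limma adjusted p = 0.498). Ebp, a sterol isomerase, differed by 0.35 (SE 0.48), an estimate that rests partly on drug control pool 3, which was at the floor. Ebp stood at 9.11, 9.59 and 9.78 in treated ischemic pools, against 8.83, 9.53 and 6.77 in drug control pools. It stood at 9.49, 9.56 and 7.80 in ischemic pools, against 9.05, 9.90 and 9.17 in control pools.

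In the single brains against drug control pools, Mvd, Mvk and Ggps1 had a median difference of -0.0644. The 7 genes from squalene to cholesterol that are not among the sterol synthesis genes defined above, Msmo1 included, had a median of 0.0263. Both medians were near that of all probe sets, -0.0512. In the single brains Msmo1 stood at 12.18, 12.36, 12.01, 12.05 and 11.84, all above the drug control pools. It was 1.69-fold higher (log2 difference 0.76, SE 0.17, limma adjusted p = 0.0429), and without drug control pool 1 the difference was 0.66 (adjusted p = 0.0737). Leaving out drug control pool 3 gave an adjusted p of 0.113, leaving out drug control pool 2 gave 0.0228, and leaving out 1 single brain gave 0.0572 to 0.0853.

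Of the genes that control SREBP, 3 were tested, Srebf1, Mbtps1 and Insig1, with 0 calls in the average of both ischemia comparisons, and the values of Insig1 at the floor give no direction. Mbtps1, the protease that starts SREBP release, differed by -0.30 (SE 0.14, limma adjusted p = 0.998), and Srebf1, which encodes SREBP1, by -0.11 (SE 0.13). Srebf2 and Scap were not analysed here.

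Among genes of sterol uptake, transport and turnover, 10 of 17 tested were above 0, with a median of 0.08 and 0 calls. The lipoprotein receptors Vldlr and Lrp1 differed by -0.15 (SE 0.34) and -0.12 (SE 0.13). Ch25h, which hydroxylates cholesterol, differed by 0.38 (SE 0.18) and the lipid transporter Abca2 by -0.42 (SE 0.26), with limma adjusted p of 0.998 and 1.00. Among fatty acid genes 4 of 7 were above 0 with a median of 0.01, led by Scd1 (0.17, SE 0.15) and Scd2 (0.10, SE 0.11), both desaturases. In the single brains against drug control pools, Pltp, a phospholipid transfer protein named after its values were seen, was 1.60-fold higher (SE 0.16 log2, limma adjusted p = 0.0487). Its adjusted p was 0.0651 to 0.118 without drug control pool 1, 2 or 3 or single brain 11, 12, 14 or 16, and 0.0390 without single brain 13.

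Cell type markers were measured in the same comparisons. The neuronal Snap25 and the myelin gene Mbp averaged 16.24 and 15.94 in both kinds of ischemic pools, and 16.20 and 15.83 in both kinds of control pools, far above the floor. Of 8 oligodendrocyte markers with a probe set 7 were tested, and Cnp was at the floor on all 12 pools. All 7 were higher in the single brains than in drug control pools, with a median difference of 0.49 and 0 calls, and their summed intensity with Cnp was 133863 to 180260 in single brains, against 102585 to 128368 in drug control pools. In the average of both ischemia comparisons 6 of 7 were above 0, with a median of 0.12. Their sum was 118990 to 144235 in treated ischemic pools, against 102585 to 128368 in drug control pools. It was 125628 to 147050 in ischemic pools, against 104127 to 128546 in control pools. Of the neuron markers 8 of 10 were below 0 in that average, with a median of -0.21. In the single brains against drug control pools 5 of 10 were below 0, with a median of -0.11. Their summed intensity was 195903 to 228556 in single brains, against 177226 to 255176 in drug control pools. All 3 striatal neuron markers measured were below 0 in the average, with a median of -0.54. Of these, 1 was at the floor in control pool 2, drug control pool 3 and ischemic pools 2 and 3. The same count held in treated ischemic pools 2 and 3 and single brains 11 to 14. Among the striatal markers, the dopamine receptor Drd2 was lower in the single brains than in drug control pools (log2 difference -1.19, SE 0.18, limma adjusted p = 0.0127). The summed intensity of the 3 striatal markers was 19087 to 52452 in single brains and 26511 to 48567 in treated ischemic pools, against 48427 to 57882 in drug control pools. It was 31658 to 42234 in ischemic pools, against 45634 to 60029 in control pools. Of 7 endothelial markers 6 had differences above 0 in the single brains against drug control pools (median 0.40), and 5 were above 0 in the average (median 0.29). At the floor were 3 of the 7 in control pool 3, and 1 in control pool 1, ischemic pool 3, treated ischemic pool 1 and single brain 13. Of 7 astrocyte markers all were above 0 in the single brains (median 0.11) and with the drug in pools (median 0.16), and 6 were above 0 in the average (median 0.16). Of 6 microglial markers tested 4 were above 0 in the single brains (median 0.32) and 4 in the average (median 0.0802). The 3 choroid plexus markers had medians of 0.0822 in the single brains and 0.31 in the average, with 2 above 0 in each. Their summed intensity was 348 in single brain 11, where 2 of the 3 were at the floor. It was 9216 to 18681 in the other single brains, against 5175 to 8262 in drug control pools. Both erythroid markers were below 0 in the single brains (median -0.55) and above 0 in the average (median 0.70). Of these 2, 1 was at the floor in control pools 2 and 3, ischemic pool 3 and single brains 11 and 14. None of these endothelial, astrocyte, microglial, choroid plexus and erythroid markers passed an adjusted p of 0.05 in either comparison. The summed intensity of the endothelial markers was 9774 to 13352 in single brains and 9954 to 11100 in treated ischemic pools, against 6838 to 11114 in drug control pools, and 8757 to 12472 in ischemic pools, against 7550 to 10850 in control pools. For the astrocyte markers it was 134543 to 162980 in single brains and 132572 to 147703 in treated ischemic pools, against 124826 to 132253 in drug control pools, and 131835 to 143047 in ischemic pools, against 114221 to 142248 in control pools. The part of these shifts in the levels of the sterol genes was not tested.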

How the data were processed

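The authors deposited 1 intensity for each of 12488 probe sets on each of 17 arrays, on a linear scale. The software, settings and genome build behind them are not given in the sources studied. From 15.2% to 19.3% of the deposited values of an array were below 0. Of the arrays, 10 had a trimmed mean (2nd to 98th percentile) of 2500, and the 5 single brains and treated ischemic pools 2 and 3 had 129 to 210. Each array was multiplied to reach 2500, a floor was put at the 25th percentile over the pooled arrays after scaling, and values were converted to log2. Arrays carry no read depth, and their number limits the precision.

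Groups came from the titles, and the single brains from their descriptions. The descriptions of 2 arrays, drug control pool 1 and treated ischemic pool 1, lack the drug that the titles name, so alternatives used groups from the descriptions or left both out. The title of the array of single brain 11 gives it the number 4, which continues the numbers of the treated ischemic pools. Its description was followed, and alternatives left it out.

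A probe set entered a test if it exceeded the floor on 3 or more arrays of that fit, with limma 3.58.1 in R 4.3.3, without the 66 array control probe sets. There were 10259 in the fit of 12 pools (4 groups, 8 residual and 2.23 prior degrees of freedom), 9907 in that of single brains with drug control pools and 9889 with ischemic pools. All tests are two-sided, with Benjamini-Hochberg adjustment over all probe sets of a comparison and a threshold of 0.05. For 3 arrays against 3 the smallest p of an exact permutation test is 0.1. Correlation p values came from 100000 resamples. The scripts were tested on simulated data.

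The platform annotation paired 10855 probe sets with 1 symbol, 396 with several and 1237 with none. The 8 genes, the lists, markers and tests were chosen with earlier results of these data known. Besides the 8 genes, the text names the 2 genes of each pathway list with the smallest p in the average ischemia difference and the 10 genes most like the mean of the members, and goes beyond that for Ggps1, Vldlr, Lrp1, Lss, Tm7sf2, Dhcr7, Elovl6, Pltp and the markers Snap25, Mbp, Cnp and Drd2, which were chosen after their values were seen.

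Pools share replicate numbers. Among drug control, ischemic and control pools, deviations from group means correlated at 0.33 to 0.57 for the same number and at -0.51 to 0.13 for different numbers, while with treated ischemic pools the same number gave -0.34 to 0.40. So the numbers pair the pools of 3 groups, as a property of the data, and the replicate block was an alternative.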

Additional observations from a re-analysis of the deposited data

Results flagged for a closer look

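Insig1 was set apart in the single brains by 1 array, brain 14, whose log2 level of 6.85 lay above the 4 others, all at the floor of 6.77. The gap is that between a dim value and the floor, and with the other 4 set to the floor any value above it would stand apart in this way, so how often chance gives such a gap is not known here.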

How the results depend on the processing

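Of 933 values of 52 results recomputed under alternative settings, 854 kept their direction and their side of the threshold or moved by less than the spread between arrays. This count includes values that could not change direction. For a gene above the floor on all arrays, another floor, no filter and the replicate block left the difference as it was and changed only its p. In the comparisons of pools, 0 of the 8 genes passed under any alternative run. With the replicate block, Idi1 differed by 0.57 between ischemic and control pools (limma adjusted p = 0.739) and by 0.58 in the average of both ischemia comparisons (adjusted p = 0.340), and the block changed no call among the 8 genes. The cause of each change below was not tested.

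With the deposited scale as a block, Fdft1 and Sc5d turned to -0.0226 and -0.0694 between treated ischemic and drug control pools, Fdft1 to -0.0607 in the average, and the Idi1 interaction to -0.26. Cyp51 was -0.0545 both with groups from the descriptions and with the 2 arrays of unlike labels left out, again between treated ischemic and drug control pools. With groups from the descriptions Idi1 was 0.0659 between treated ischemic and ischemic pools. The median of the 8 genes between drug control and control pools was -0.0042, and it was -0.0603 both with Insig1 left out and with a floor at the 40th percentile, -0.0641 by the descriptions and -0.0709 when both arrays were left out.

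In single brains against drug control pools, 1 gene passed with the floor at the 20th percentile (median 0.27, Fdps 0.49 at an adjusted p of 0.0646) and 1 with the mean of a gene's probe sets (median 0.19, Fdps 0.35, Sc5d -0.0235). With no filter the median was 0.27. Against ischemic pools it was 0.13 after quantile normalization.

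Leaving out 1 array gave ranges that crossed 0 for several differences. Between ischemic and control pools these were -0.0699 to 0.20 for Fdps, -0.0551 to 0.22 for Sqle and -0.19 to 0.0412 for Fdft1. Between treated ischemic and drug control pools they were -0.19 to 0.34 for Cyp51 and -0.0745 to 0.76 for Sc5d. They were -0.0152 to 0.12 for Fdft1 in the average and -0.16 to 0.22 for the Idi1 interaction. In single brains against drug control pools they were -0.0482 to 0.16 for Hmgcs1 and -0.0194 to 0.81 for Sc5d, with 1 to 2 genes passing, 0.44 to 0.54 for Fdps and medians of 0.21 to 0.44. Medians of the 8 genes ran from 0.0575 to 0.21 between ischemic and control pools, with 0.29 and 0.28 for floors at the 20th and 40th percentile, and from 0.0873 to 0.23 between treated ischemic and drug control pools. They ran from -0.17 to 0.0211 between drug control and control pools, -0.10 to 0.14 for the interaction and -0.0112 to 0.18 between single brains and ischemic pools. A floor at the 10th percentile could not be used, since that percentile was below 0, and the 20th percentile and the median without Insig1 were chosen after seeing the data.

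The limits are 3 arrays a group and a scale that differs between most treated ischemic arrays and their controls. A further limit is an unexplained replicate number, which held more of the variation than treatment in several of these genes on the probe sets used. Near the threshold, Fdps, Msmo1 and Pltp depend on single arrays.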
